A study of Mus musculus with 4 samples.

Results

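The cytosolic ribosomal protein genes were taken as all mouse protein-coding genes whose symbol is Rpl or Rps followed by a digit, with Rpsa and Rplp0 to Rplp2 and without the Rps6k kinase genes. The rule found 91 of 21900 protein-coding genes, 56 with Rpl symbols (large subunit) and 35 with Rps symbols (small subunit). Of these, 77 carry the name of one of the ribosome's own proteins. The other 14 are paralogs marked "like", copies marked as retrogenes or pseudogenes that the table types as protein-coding, Rps23rg1, and Rps19bp1, which encodes a protein named for binding Rps19. Rps6k symbols were left out in 10 cases.

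The data are 1 list of peaks for DHX9, an RNA helicase that unwinds RNA duplexes, in mouse embryonic stem (ES) cells of the male line WT26 (strain C57BL/6x129sV), which grow without feeder cells in serum and the cytokine LIF. RNA was crosslinked to protein with ultraviolet light and pulled down with a rabbit antibody against DHX9 in 2 samples and with rabbit IgG as the control in 2 samples, and the RNA fragments were sequenced (FLASH, a form of CLIP-seq). All 4 samples are of this 1 line without any other treatment or genetic change named in the labels. Each of the 59563 peaks has coordinates and a strand but no score, read count or value per pulldown, so depth is unknown and no error between pulldowns can be given. Peaks lay in all 5 ES cell marker genes checked: Pou5f1 (12), Nanog (13), Sox2 (6), Esrrb (64) and Zfp42 (24). Of 5 fibroblast markers 1 held peaks, Fn1 with 63, while Col1a1, Col1a2, Thy1 and Vim held none.

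Ribosomal proteins are assembled on ribosomal RNA in the nucleolus into a large subunit, which joins amino acids, and a small subunit, which reads the messenger RNA. Their genes are short, are transcribed at a high rate in growing cells, and give messages that commonly begin with a run of pyrimidines (the terminal oligopyrimidine tract) through which their translation follows nutrient signals. Many of them also carry small nucleolar RNAs (snoRNAs) in their introns: C/D box snoRNAs direct methylation and H/ACA box snoRNAs direct pseudouridine formation on ribosomal RNA, and both are released from the spliced intron.

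DHX9 peaks were present in 60 of the 91 genes (65.9%, 95% Wilson interval 55.7 to 74.8%), against 22.8% of all protein-coding genes. The interval covers counting error over genes in 1 list only, as do those below, and no test over samples was possible. The genes are short, with a median of 3.17 kb, while the median over all protein-coding genes was 17.1 kb. Among the 1856 other protein-coding genes of 2.31 to 4.56 kb, the quartiles of the ribosomal protein genes, 5.39% held a peak (4.45 to 6.51%). Of the 45 ribosomal protein genes in this range, 33 held one (73.3%, 59 to 84%). The ribosomal protein genes held 251 peaks, with a median of 2 over all 91 and of 3 over the 60 with a peak. Over genes with a peak the median was 5 among all protein-coding genes and 2 among the others of 2.31 to 4.56 kb. Per kb of gene there were 0.741 peaks, against 0.0538 in all protein-coding genes. At least 3 peaks lay in 39 of the 91 (42.9%), against 14.8% of all protein-coding genes. The amount of RNA from each gene is not in the list, so its part in these values was not tested.

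The genes named for the ribosome's own proteins held most of these peaks. A peak was present in 56 of the 77 (72.7%, 61.9 to 81.4%) and in 4 of the other 14 (28.6%, 11.7 to 54.6%). These 4 were Rpl7l1 with 13 peaks, Rps19bp1 with 5, Rps27l with 2 and Rpl37rt with 1. The remaining 10 held none: Rpl10l, Rpl22l1, Rpl31-ps12, Rpl32l, Rpl34-ps1, Rpl36al, Rpl39l, Rpl3l, Rps23rg1 and Rps27rt. Among the ribosome's own proteins 21 genes held none, among them Rpl7, Rpl9, Rpl10, Rpl11, Rpl14, Rpl18, Rpl26, Rpl28, Rpl34, Rpl36, Rpl36a, Rpl41 and Rplp1 of the large subunit and Rps4x, Rps6, Rps21, Rps23, Rps27, Rps27a and Rps29 of the small subunit. Those without a peak had a median length of 2.50 kb and those with one 3.61 kb. Of the 10 under 2 kb, 7 held no peak, and of the 27 of 4 kb and over, 23 held at least 1. On chromosome X, 1 of 4 had a peak (25%, 4.56 to 69.9%), against 65.9% of all 91 genes and 22.8% of all protein-coding genes. With 4 genes the interval is wide, and no deficit on this chromosome can be read from it.

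Large and small subunit genes did not differ beyond counting error in the share with a peak. A peak was present in 35 of 56 large subunit genes (62.5%, 49.4 to 74.0%) and in 25 of 35 small subunit genes (71.4%, 54.9 to 83.7%). The difference, large minus small, was -8.93 percentage points, with a 95% interval of -26.9 to 11.2 points that leaves room for a gap in either direction. Over the 77 genes named for the ribosome's own proteins the shares were 71.7% of 46 and 74.2% of 31, a difference of -2.45 points (-21.2 to 18.1). The median number of peaks was 1 over all large subunit genes and 2 over all small subunit genes, and 3 against 4 over those with a peak. Per kb of gene, there were 0.664 peaks in large subunit genes and 0.861 in small subunit genes.

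**Figure D1:**
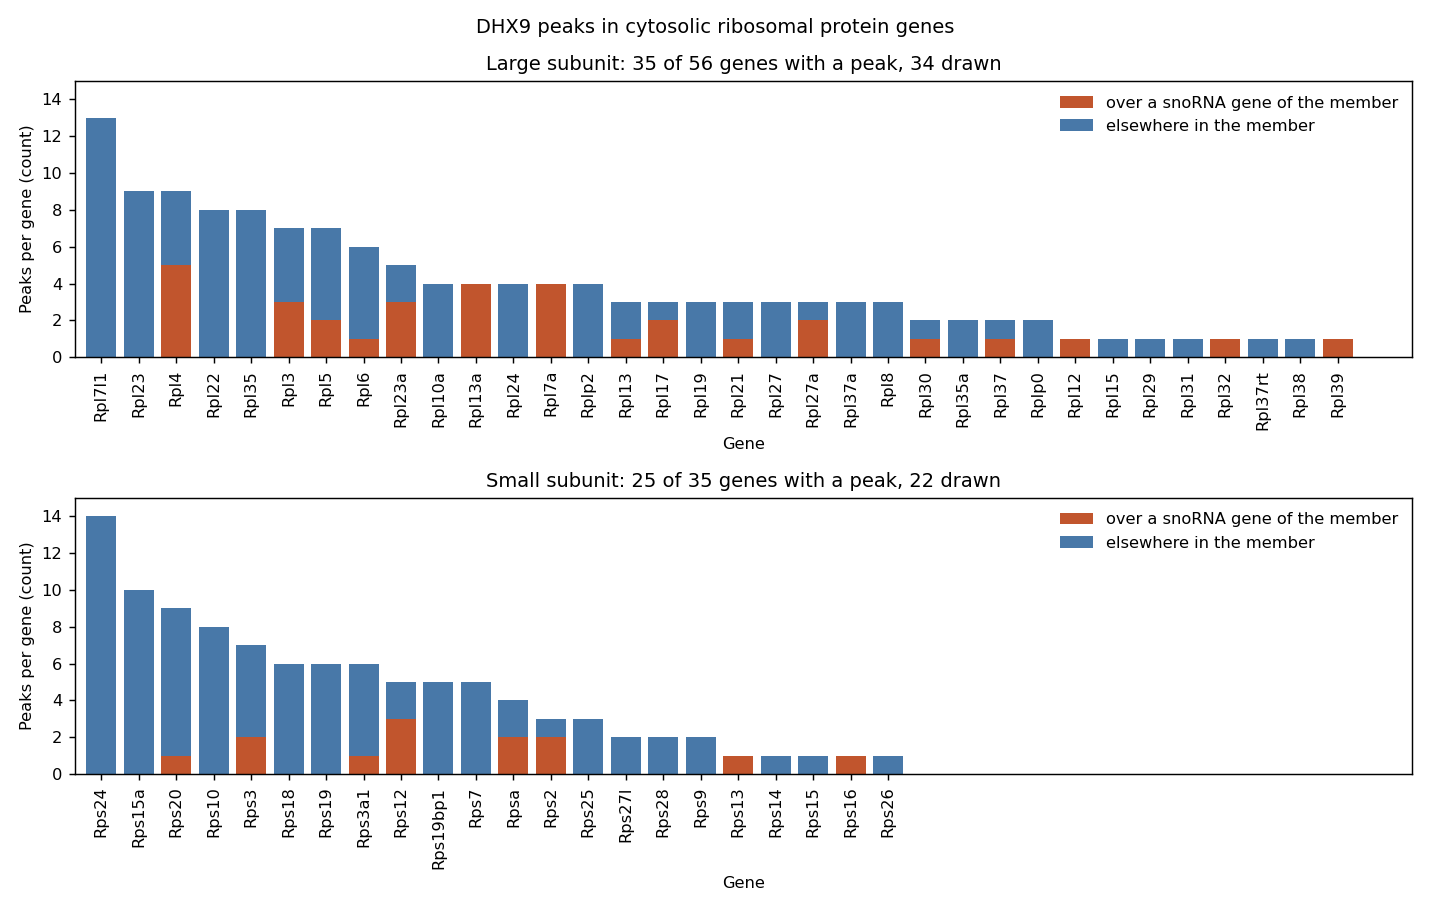
Number of DHX9 peaks (vertical axis, count) in 34 large and 22 small subunit genes with a peak (horizontal axis), large subunit above and small subunit below, with peaks over a snoRNA gene of that gene in orange and all others in blue. Rps24 holds 14 and Rpl7l1 13, and in Rpl7a and Rpl13a all 4 peaks lie over snoRNA genes.

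The small subunit gene Rps24, mutated in some cases of the inherited anaemia named after Diamond and Blackfan, held the most peaks of all members, 14 over 6.28 kb of chromosome 14 (24490678 to 24496960, mm10). All lay on the plus strand, which is the strand of the gene, and together they covered 50.2% of its body. The first of them began 38 bases from the first listed RefSeq start of the gene and spanned a second listed start (24490753). The last of the 14 peaks ended 189 bases before the end of the gene. Rps15a, also of the small subunit, held 10 peaks over 11.8 kb of chromosome 7 (118104374 to 118116147), of which 9 lay nearer the start of the gene than its end. Rps20 held 9 over 4.07 kb of chromosome 4 (3831584 to 3835655). Rps10, whose protein lies along the path of the messenger RNA, held 8, and Rps3, which lines the channel where it enters, held 7. Rps18, Rps19 and Rps3a1 held 6, and Rps7, Rps12 and Rps19bp1 held 5. The peaks of these genes lay on 1 strand each, with the exception of Rps19bp1.

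In the large subunit the paralog gene Rpl7l1 led with 13 peaks over 8.75 kb of chromosome 17 (46773907 to 46782656), while Rpl7 itself held none in 3.14 kb. Rpl23, whose protein sits at the joint between the subunits, held 9 that covered 61.7% of its 4.91 kb (chromosome 11, 97777526 to 97782439). Rpl4, whose protein reaches into the exit tunnel of the growing chain, also held 9 (chromosome 9, 64173387 to 64178562). Rpl35, at the rim of the same tunnel, held 8 in 3.55 kb and had the widest coverage of the genes with the most peaks, 71.6% of its body (chromosome 2, 39001581 to 39005131). Rpl22 held 8 in 9.65 kb and its shorter paralog gene Rpl22l1, of 1.92 kb, none. Rpl3, near the site of peptide bond formation, and Rpl5, which binds the smallest ribosomal RNA, held 7 each, Rpl6 held 6 and Rpl23a 5. Rpl11, the partner of Rpl5 on that RNA, held none in 4.04 kb, while Rpl5 spans 8.5 kb. The 12 genes with the most peaks held 110 of the 251 (43.8%), and 14 genes held 1 each.

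**Figure D2:**
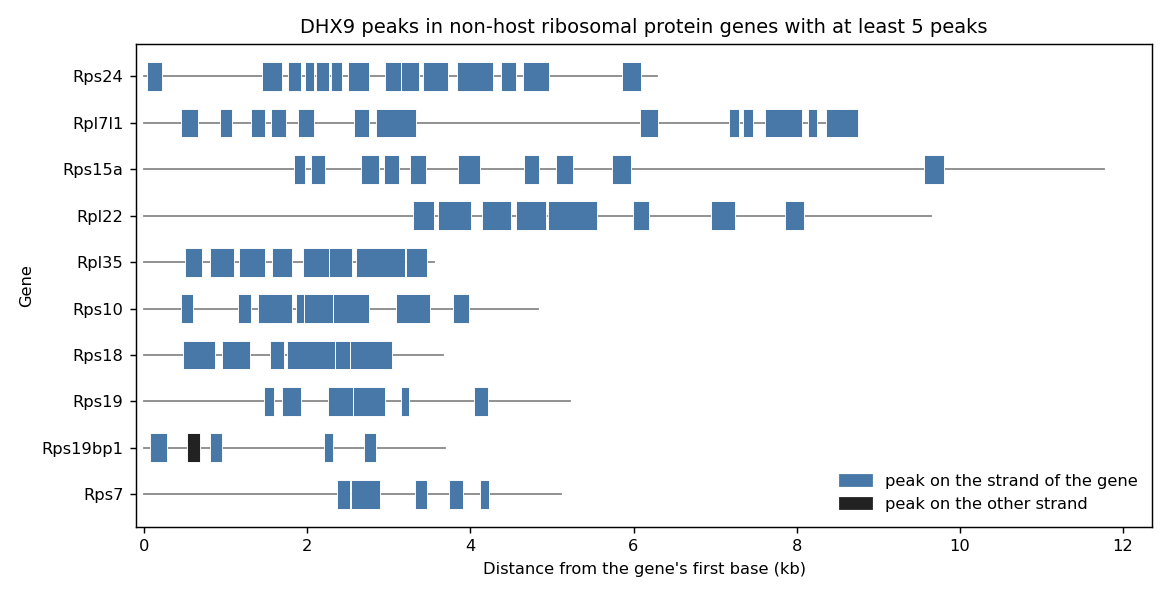
Position of DHX9 peaks in 10 of the 11 ribosomal protein genes without a snoRNA gene that held at least 5 peaks (rows), as distance in kb from the first base of the gene on the horizontal axis. Boxes are peaks drawn to scale and grey lines the gene bodies; Peaks cover 50.2% of Rps24 and 71.6% of Rpl35, 9 of the 10 peaks of Rps15a lie nearer its start than its end, and the black box in Rps19bp1 is its peak on the other strand.

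snoRNA genes lay wholly inside 30 of the 91 genes, with strand not considered, 20 of the large and 10 of the small subunit, and 29 of these 30 hosts held a peak. The share was 96.7% (83.3 to 99.4%) in hosts and 50.8% (31 of 61, 38.6 to 62.9%) in non-hosts, a difference of 45.8 points (27.8 to 58.4). All 30 hosts are genes of the ribosome's own proteins, and against the 47 such non-hosts (57.4%) the difference was 39.2 points (20.6 to 53.6). Hosts and non-hosts had median lengths of 3.18 and 3.16 kb, but their ranges differed. Hosts spanned 2 to 8.5 kb and non-hosts 0.374 to 16.8 kb, so all members under 2 kb were non-hosts. Of the 342 other protein-coding genes that host a snoRNA gene, 174 held a peak (50.9%, 45.6 to 56.1%). Their median length was 72.1 kb, and the share over all protein-coding genes was 22.8%. Among genes between the length quartiles, 17 of 18 hosts and 16 of 27 non-hosts held a peak. Within the large subunit the shares were 95% of 20 hosts and 44.4% of 36 non-hosts, and within the small subunit 100% of 10 and 60% of 25. Hosts held a median of 4 peaks and non-hosts 1, or 1.10 and 0.574 peaks per kb.

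The gap in share, count and density was smaller without the peaks over the snoRNA genes themselves. Non-hosts hold no snoRNA gene, so this filter removes peaks from hosts only. The direction of the change was therefore fixed in advance, and only its size is a result. With only peaks that touch no snoRNA gene, 20 of the 30 hosts (66.7%, 48.8 to 80.8%) and the same 31 of 61 non-hosts held a peak, a difference of 15.8 points with an interval of -5.76 to 34.5 points. Against the non-hosts among the ribosome's own proteins the difference was then 9.22 points (-12.9 to 29.2). The median count was then 1.5 in hosts and 1 in non-hosts, with 0.617 and 0.574 peaks per kb of whole gene length, snoRNA genes included. Hosts held 119 peaks, of which 52 lay over a snoRNA gene and 67 elsewhere, while snoRNA genes made up 5.16% of host length. In bases, peaks covered 82.7% of the snoRNA genes, 20.8% of the rest of the hosts and 13.7% of the non-hosts. The rest of the hosts includes the ends of peaks that reach past a snoRNA gene. Coverage was 16.1% in the non-hosts among the ribosome's own proteins. It was 22.3% in the 31 non-hosts with a peak, a set chosen for having one.

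**Figure D3:**
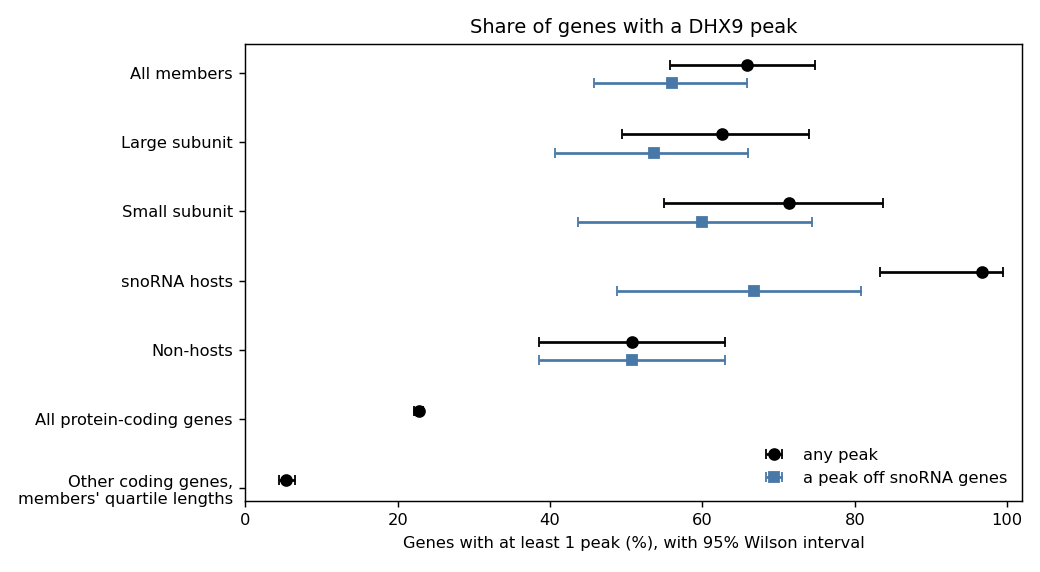
Share of genes with at least 1 DHX9 peak (horizontal axis, percent) by group, with bars for 95% Wilson intervals; black circles count any peak and blue squares only peaks that touch no snoRNA gene of the gene. Hosts fall from 96.7% to 66.7% between these counts, and non-hosts, which hold no snoRNA gene, are by construction at 50.8% in both.

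Of the 59 snoRNA genes in ribosomal protein genes, 52 overlapped a peak (88.1%, 77.5 to 94.1%), against 13.4% of all 1340 snoRNA genes in the table. In other protein-coding genes that hold a peak, 88 of 228 snoRNA genes did (38.6%, 32.5 to 45.1%). The overlap reached 34 of 40 in the large subunit and 18 of 19 in the small subunit. In 49 cases 1 peak held the whole snoRNA gene, and 45 of the 59 contained the midpoint of a peak. The midpoint of the nearest peak lay a median of 11.5 bases from the centre of the snoRNA gene, and for 39 of the 52 it lay within 20 bases. Among snoRNA genes shorter than 100 bases 36 of 37 overlapped a peak (97.3%, 86.2 to 99.5%), and among those of 100 bases or longer 16 of 22 did (72.7%, 51.8 to 86.8%). By name, 21 of 22 C/D box genes (Snord) and 9 of 12 H/ACA box genes (Snora) overlapped one. The other 25 carry symbols that do not give the class.

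In 23 hosts every snoRNA gene overlapped a peak. Rpl7a had 4 peaks of 86 to 123 bases over its 4 snoRNA genes of 68 to 74 bases and no other peak in its 2.63 kb (chromosome 2, 26910685 to 26913312). Rpl13a likewise had 4 peaks, over Snord32a, Snord33, Snord34 and Snord35a, with widths of 92 to 197 bases (chromosome 7, 45125563 to 45128745). In all, 9 hosts had peaks only over snoRNA genes. Among the others were Rpl12, Rpl32, Rpl39, Rps13 and Rps16, with 1 peak and 1 snoRNA gene each.

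Other hosts had peaks both over snoRNA genes and elsewhere. All 5 snoRNA genes of Rpl4 overlapped peaks, together with 4 further peaks. The same held for the 3 of Rpl3 (4 further peaks), the 3 of Rpl23a (2), the 3 of Rps12 (2), Snord15a and Snord15b of Rps3 (5), the 2 of Rpl27a (1) and Snora78 and Snora64 of Rps2 (1), although the peak over Snora78 was on the strand opposite to Rps2. Rpl6, Rpl13, Rpl30, Rpl37, Rps3a1 and Rps20 each had their 1 snoRNA gene under a peak and between 1 and 8 peaks elsewhere. The table types Snord73b, a further gene inside Rps3a1, as snRNA, and it was not counted among the snoRNA genes. Some but not all snoRNA genes lay under peaks in Rpl5 (2 of 3), Rpl17 (2 of 3), Rpl21 (1 of 2) and Rpsa (2 of 3).

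No snoRNA gene lay under a peak in Rpl10, Rpl23 and Rplp2. Rpl10, on chromosome X, held Snora70 and no peak at all. Rpl23 had 9 peaks and Rplp2 had 4, none of which touched Snora21 or Snora52. The 7 snoRNA genes without a peak were these 3, Snord58b of Rpl17, Gm26387 of Rpl5, LOC115490276 of Rpl21 and LOC115485682 of Rpsa, and 6 of the 7 were 100 bases or longer.

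**Figure D4:**
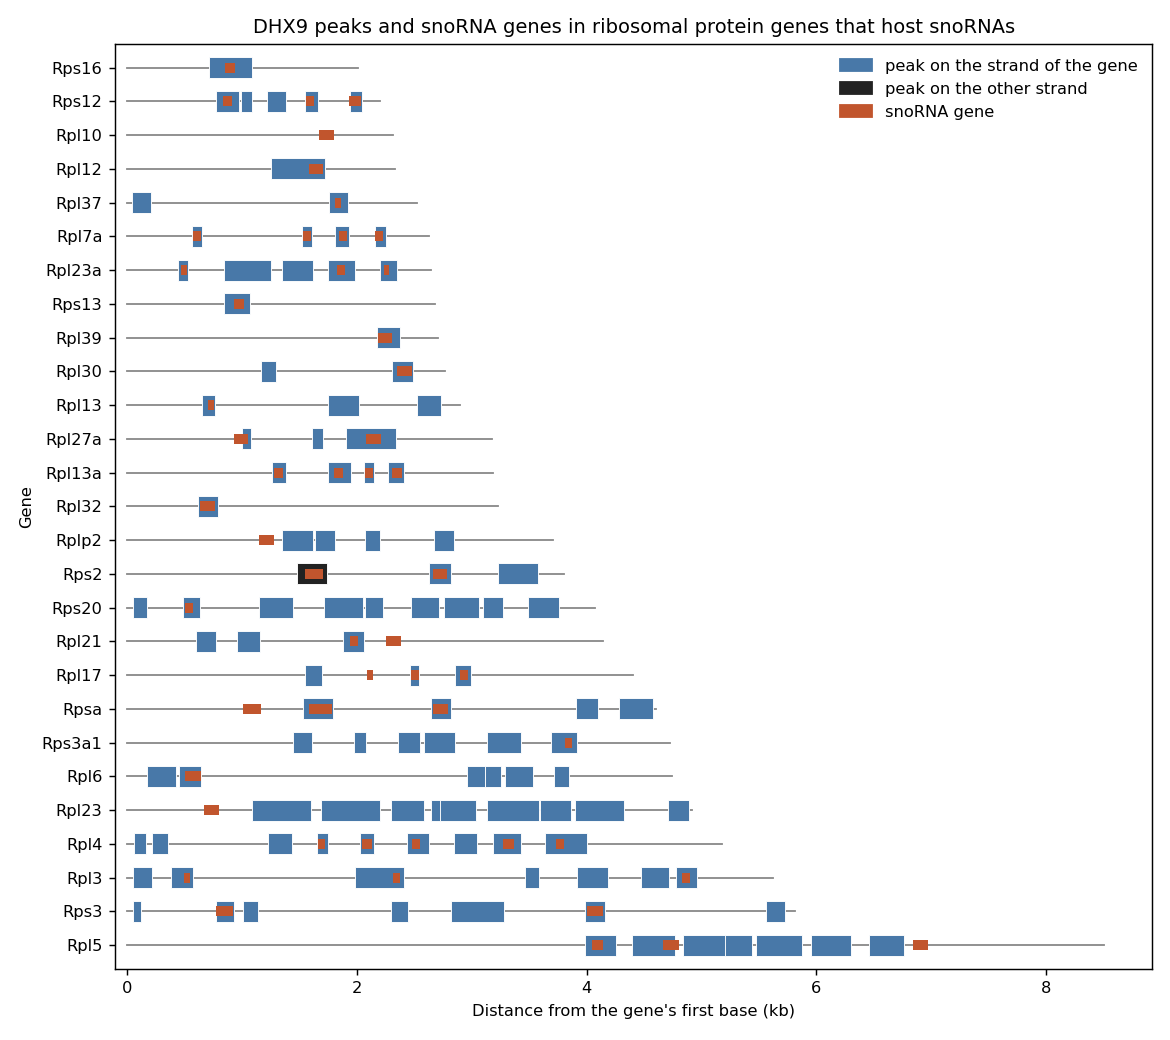
DHX9 peaks (blue boxes, black on the other strand) and snoRNA genes (narrow orange boxes) in 27 of the 30 host genes (rows), as distance in kb from the first base of the gene; genes without a listed start are drawn along the strand of their peaks. Of the 53 orange boxes, 46 touch a peak, and in Rpl7a and Rpl13a no peak lies apart from one.

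Sequence under a peak could be read at 2 places where RefSeq (GRCm38.p6, the assembly of mm10) lists a microRNA inside a bound ribosomal protein gene, and is shown because it gives the RNA that the peaks cover. The hairpins of Mir5121 in Rpl13a (chr7:45126918-45126991, minus strand) and Mir7079 in Rpl13 (chr8:123104975-123105043, plus strand) each lay wholly inside a peak, of 197 and 215 bases. Mature microRNA is in capitals.
Mir5121: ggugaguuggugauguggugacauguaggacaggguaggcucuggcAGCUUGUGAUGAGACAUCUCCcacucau
Mir7079: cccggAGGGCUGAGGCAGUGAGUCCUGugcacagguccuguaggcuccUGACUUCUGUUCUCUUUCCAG

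The mature sequences follow with the seed (bases 2 to 8) in capitals, and no 2 of them share one.
miR-5121: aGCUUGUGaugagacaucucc
miR-7079-5p: aGGGCUGAggcagugaguccug
miR-7079-3p: uGACUUCUguucucuuuccag

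The peak over Mir5121 is also the peak over Snord33. The hairpin shares 28 bases with this 82-base C/D box snoRNA gene (chr7:45126918-45126945, minus strand), and the 21-base mature microRNA starts at the same base as the snoRNA gene. The shared stretch holds UGAUGA, the core of the C box that gives this class of snoRNA its name, from its base 7 (in capitals).
Snord33, first bases: agcuugUGAUGAgacaucucccacucau

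Searched on the listed strand, UGAUGA was present in 2.69% of the 1005 hairpins in the RefSeq table. The hairpin of Mir3091 in Rps21 overlapped no peak. Of all listed hairpins 6.97% overlapped one. At these loci, fragments of the microRNA, the snoRNA and the host message cannot be told apart from the peak list.

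Peaks in ribosomal protein genes were almost all on 1 strand per gene. The lesser strand held 2 of 251 peaks (0.797%, 0.219 to 2.86%), and in all protein-coding genes it held 0.674%. A gene with 1 peak, as 14 of the 60 had, holds none there by construction, so this share depends on peaks per gene. It held none of 136 in large subunit genes, which allows a share of up to 2.75%, and 2 of 115 in small subunit genes (1.74%, 0.478 to 6.12%). By hosting, it held 1 of 119 peaks in hosts and 1 of 132 in non-hosts. RefSeq lists a start, and with it a strand, for 70 of the 91 genes. In these, 197 of 199 peaks (99.0%, 96.4 to 99.7%) were on the strand of the gene, against 98% for all protein-coding genes with a listed strand. The 2 peaks on the other strand were in Rps2 and Rps19bp1. The peak in Rps2, on the minus strand (chromosome 17, 24719606 to 24719865), covered the whole of Snora78 and lay in Snhg9, a noncoding snoRNA host gene that RefSeq lists on the minus strand, and before the listed start of Rps2. The peak in Rps19bp1, on the plus strand (chromosome 15, 80263625 to 80263782), lay in no other gene of the table.

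Peak width was close to that of the list as a whole. The median was 199 bases (95% interval 190 to 215) in ribosomal protein genes and 197 in all protein-coding genes. It was 200.5 (190 to 221) in large and 196 (180 to 224) in small subunit genes. Hosts had a median of 192 bases (174 to 211) and non-hosts of 207 (196 to 226). Within the hosts, peaks over snoRNA genes had a median of 179.5 bases (146 to 197) and those elsewhere 215 (176 to 270). The narrowest peak, of 66 bases, was in Rps3, and the widest, of 607 bases, in Rpl35. These intervals treat peaks as separate, although peaks of 1 gene share their RNA.

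**Figure D5:**
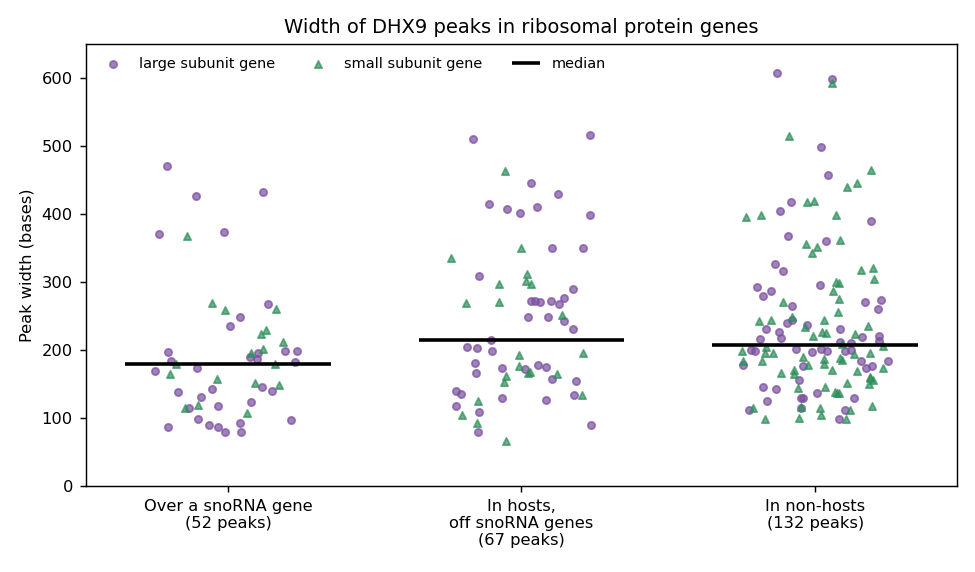
Width in bases (vertical axis) of each DHX9 peak in ribosomal protein genes, by place; points are peaks (circles large subunit, triangles small subunit) and black lines are medians. The medians are 179.5 bases over snoRNA genes, 215 elsewhere in hosts and 207 in non-hosts, and the ranges overlap widely.

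Along the gene body, peaks of ribosomal protein genes were not concentrated at the start. With each body split into 3 equal parts, the first held 45 (22.8%), the middle 84 (42.6%) and the last 68 (34.5%) of the 197 peaks on the strand of genes with a listed start. In all protein-coding genes the first part held 43.3% and the last 23.0%. In the other protein-coding genes between the length quartiles of the ribosomal protein genes, the first held 29.6% of 243 peaks and the last 32.5%. The first peak after a start began a median of 926 bases from it. In 2 of 46 genes it began within 50 bases, at base 38 from the first listed start in Rps24 and base 45 in Rpl37. Both are shown from base 21 to base 50 after that start with the bases inside the peak in capitals (chr14:24490698-24490727 and chr15:5116633-5116662, both on the plus strand).
Rps24: ttggtcggcagtgagcgGTCCTCTTTTCCT
Rpl37: cgggggtgctttctcttccggtctCTTTGG

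Starts themselves are shown for the genes with the most peaks that carry a pyrimidine tract there, as 15 bases before and 15 from the RefSeq start with the tract in capitals (chr14:24490663-24490692 on the plus strand, and chr7:118116133-118116162, chr17:27635230-27635259 and chr2:39005117-39005146 on the minus strand). The tract was searched as a C followed by at least 4 bases that are each C or T, beginning within 5 bases of the start, on the strand of the gene.
Rps24: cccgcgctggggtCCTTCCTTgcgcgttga
Rps15a: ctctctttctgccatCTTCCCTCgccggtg
Rps10: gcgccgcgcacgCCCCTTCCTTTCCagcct
Rpl35: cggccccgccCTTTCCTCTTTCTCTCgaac

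Such a tract was found in 32 of the 70 genes with a listed start (45.7%, 34.6 to 57.3%) and in 21.5% of all protein-coding genes with one. A run that begins farther than 5 bases from the listed start, as in Rps12 and Rpl4, was not counted. The genes without the tract therefore include some with such a run nearby. Of the genes with the tract 20 of 32 held a peak (62.5%, 45.3 to 77.1%), and of those without it 26 of 38 (68.4%, 52.5 to 80.9%), with overlapping intervals. In the 250 bases before the start, on either strand, GGGCGG was present in 48.6% of the ribosomal protein genes and 45.8% of all protein-coding genes, and TATAAA in 8.57% and 13.7%.

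Other genes of the ribosome and of messages with such a tract were taken from a list of 20. A peak was present in 17 of them (85%, 64.0 to 94.8%), at a median gene length of 7.32 kb. Over all protein-coding genes the share was 22.8%, at a median length of 17.1 kb. Nap1l1, a histone chaperone gene, held 35, the initiation factor gene Eif4b 24 and the elongation factor gene Eef1g 17. Of the ribosomal proteins that the symbol rule leaves out, Rack1 held 13 and Fau held none. Among 23 ribosome assembly factor genes 18 held a peak (78.3%, 58.1 to 90.3%), led by Nop58 with 64, the nucleolin gene Ncl with 23 and Nob1, which encodes an endonuclease of small subunit maturation, with 22. Their median length was 13.9 kb, and the same 22.8% of all protein-coding genes is the share to set beside theirs. Both lists have a higher median length than the ribosomal protein genes (3.17 kb), and length was not matched.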

How the data were processed

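The deposited data are a single peak list, whose columns give the first and last base of each peak and its strand and whose score column is empty throughout. Per the file's source column peaks were called with PEAKachu. Bowtie2 2.2.6 and the builds hg19 and mm10 are named in the submitters' processing notes. PEAKachu's settings, the use of the IgG samples, the mapping of repeated sequence and any pooling of replicates are not stated by these sources. Per the labels' protocols, random bases in the adapters served to merge PCR duplicates.

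A peak was assigned to each gene of the RefSeq table (GRCm38.p6) that held its midpoint. Strand and start came from RefSeq's promoter windows (250 bases before to 50 after the start), matched by gene ID for 70 of 91 members. The table holds no exons, so introns were not told apart. Hosts hold a gene of biotype snoRNA wholly inside. Shares carry 95% Wilson intervals, their differences intervals built from these, and medians order-statistic intervals. No test was made, since the list holds no samples. Members and lists were chosen with earlier results of these data known. Named with values were the 12 members with the most peaks, hosts of a snoRNA gene under a peak, members with a peak on the lesser strand and up to 3 genes of each list; other genes named were chosen after their values were seen. A few genes are counted but not reported by name here. Counting was tested on simulated peaks. Python 3.11.15, pandas 2.3.3 and statsmodels 0.14.6 were used.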

Additional observations from a re-analysis of the deposited data

How the results depend on the processing

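No paired analysis was possible because the list holds no values per replicate, and for the same reason no replicate could be left out. Of 43 recomputed values 37 stayed within the interval of the reported value (for peaks per gene, within 1.5 times) and 6 did not. When peaks narrower than the list's median were dropped, 53.8% of the genes held a peak, with 1.49 peaks per gene in place of 2.76 and a median width of 270.5 bases, which the filter on width sets by construction. With at least 3 peaks required the share was 42.9%. With a peak midpoint required inside the snoRNA gene, 76.3% of snoRNA genes counted. With only peaks off snoRNA genes, chosen after seeing the data, the host difference was 15.8 points, under a filter that can lower only the share of hosts. In the other alternatives, some of them also added later, it ranged from 34 to 45.8 points, and the large minus small difference from -14.6 to -2.27 points. Depth is unknown, so a gene without a peak cannot be called unbound.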

Other observations

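Ribosomal protein genes have many processed copies elsewhere in the genome. Of 324 pseudogenes with ribosomal protein symbols, 2 held a peak (0.617%, 95% Wilson interval 0.169 to 2.22%), and the 1.23% of all 10622 pseudogenes lay inside this interval. The median length was 533 bases in the former and 921 in the latter. Rplp2-ps1 held 1, which also lay in Wdr89, and Rpl14-ps1 held 1, which also lay in Trpm4. How reads that match both a gene and its copies were placed is not given in the sources used here, so members without a peak, such as Rpl7 and Rplp1, are uncertain in this respect.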
